A study of Mus musculus with 108 samples.

Results

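Night was compared with day in the livers of wild-type male 129S1/SvImJ (129) mice, an inbred strain, fed a high fat and sucrose diet (HFD, D12492i). The night group was the 6 libraries taken 18 and 22 h after lights on (zeitgeber time, ZT18 and ZT22), and the day group was the 6 libraries at ZT6 and ZT10, with 3 replicates at each time. Each of these 12 of the 108 liver libraries of the series was put in its group by its labels of strain, genotype, diet and time. The series sets 2 inbred strains and 2 diets side by side, and 12 libraries each of wild-type male C57BL/6J (B6) mice on HFD and of wild-type male 129 mice on chow, at the same 4 times, served for comparison. The labels give no ages and do not say whether replicates came from separate animals. All p-values therefore rest on the spread between these libraries, which may be technical. The set itself was picked with measured values in view, because its libraries are the most alike, so the low spread behind its p-values was part of that choice. The median over genes of the SD between replicates was 0.238 on the log2 scale, against 0.322 in B6 on chow, 0.372 in B6 on HFD and 0.401 in 129 on chow.

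The liver clock is a feedback loop. The activators CLOCK or NPAS2 with BMAL1 (the product of Arntl) switch on genes through E-boxes, among them the genes of the PER and CRY repressors, which shut the activators off, and of REV-ERB (Nr1d1 and Nr1d2), which represses Arntl against the ROR activators. DBP, TEF and HLF act on D-boxes as outputs of the loop, where NFIL3 opposes them. Mice eat mostly by night, when the liver takes up nutrients and makes and secretes proteins. Secreted proteins fold in the endoplasmic reticulum (ER), whose chaperones are induced by the unfolded protein response, while heat shock proteins are the chaperones of the cytosol.

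The values are 1 signal per RefSeq transcript and library that the authors quantile-normalised, so every library has the same total of 10837743, the depth is unknown and a shift of most genes in one direction would not show. Of 25125 gene symbols, 11287 had a mean of at least 10 and were tested as log2(value + 1), so differences of low genes are understated. None of the 11 tested hepatocyte markers had a median of 0, and 1 of them (Hnf4a) passed the test. Their summed level was 1451000 to 1515000 by night and 765700 to 1516000 by day, so at least 1 day library lay far below every night library. The sum of 20 lipoprotein genes was 493400 to 523000 by night and 223800 to 549300 by day. That of nuclear-retained and structural RNAs was 487500 to 545100 by night and 435000 to 917200 by day. The cause of these wider day ranges was not tested. The share of tested genes under a value of 1 was 0.204% to 0.266% by night and 0.177% to 0.284% by day. The slope of a library's values on GC content was higher by night by 0.177 log2 per 10 GC points (exact permutation test of 6 against 6 libraries, two-sided, p = 0.0368, adjusted over 4 library measures 0.147). With the trend on GC content and length removed, 1823 genes passed, and 77.1% of the calls below were kept.

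Of the 11287 genes, 1796 (15.9%) differed between night and day at an adjusted p below 0.05 (limma, Benjamini-Hochberg over all genes). By night 868 (7.69%) were higher, called night-high here, and 928 (8.22%) were lower, called night-low. At least a 2-fold difference was seen for 207 of them (1.83%), with 132 night-high (1.17%) and 75 night-low (0.664%). For 675 genes (5.98%) the 6 night values did not overlap the 6 day values, and 642 of these (5.69%) passed the test. The median difference over all genes was -0.01 log2. Calls numbered 1091 without ZT18 replicate 1, 1171 without ZT10 replicate 2, 898 with no filter on low values and 538 when all 72 wild-type libraries were fitted together. None of the 1796 genes had the other sign in those of the 22 alternative fits that held it. Fits of 18 or 72 libraries, of 2 group means or with a term for replicate number keep the same group means, so no sign could change there. The other fits reuse most of the same libraries, so a change of sign was unlikely in advance.

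**Figure D1:**
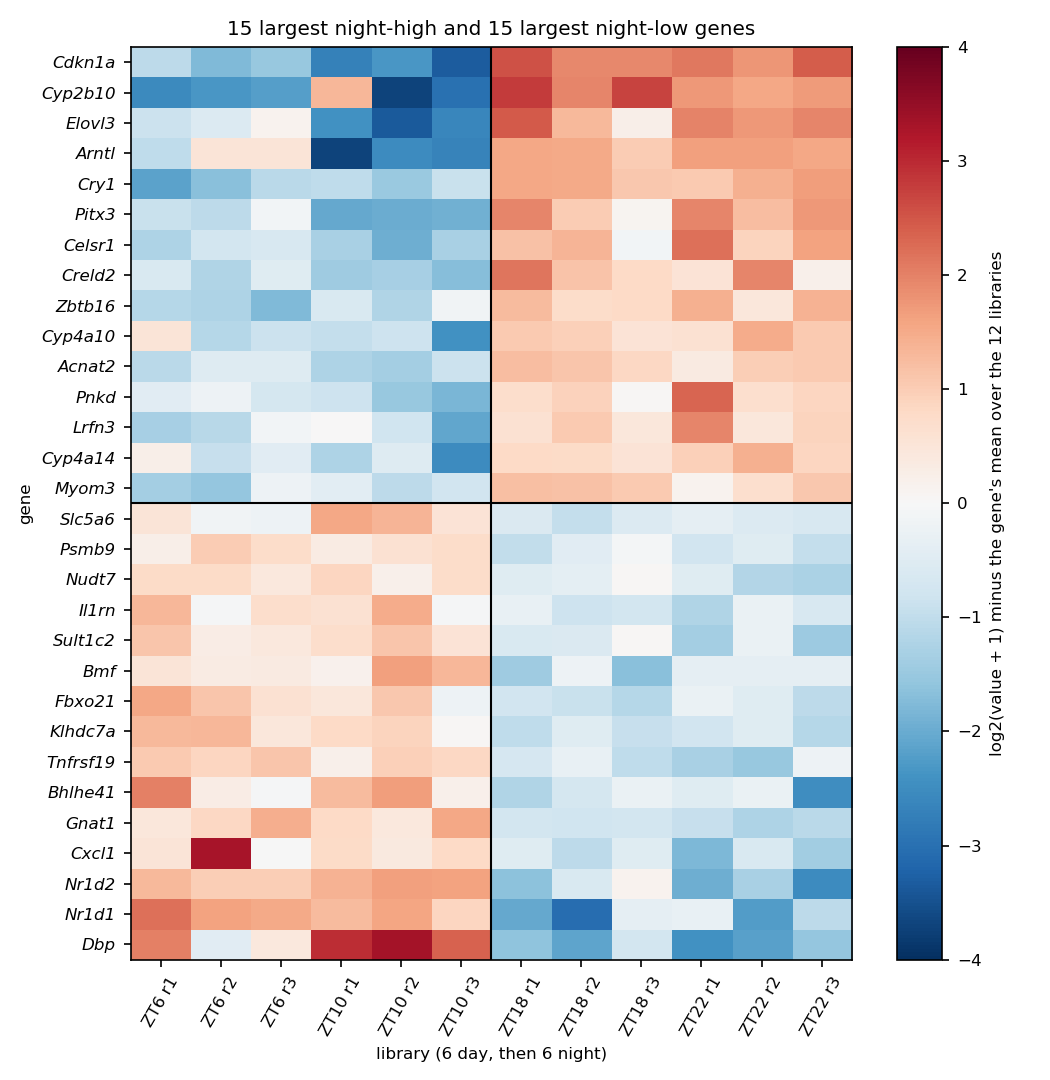
Heat map of the 15 largest night-high (top) and 15 largest night-low genes among those that passed the test and did not overlap. Symbols that start with Mir, Snor or Gm followed by digits, or end in Rik, were left out. Rows are genes and columns are the 6 day libraries (ZT6 and ZT10, r is the replicate) and the 6 night libraries (ZT18 and ZT22). Colour is log2(value + 1) minus the gene's mean over the 12 libraries. Cyp2b10 in ZT10 replicate 1 and Cxcl1 in ZT6 replicate 2 stand out from the other day libraries.

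The clock activators went one way, while the differences of the 10 repressors lay above 0 for 5 and below 0 for 5. All 5 activators measured were night-high, with a median difference of 1.13 log2, while of 10 repressors 5 were night-low (Nr1d1, Nr1d2, Per3, Bhlhe41 and Ciart) and 2 were night-high (Cry1 and Per2). The night-low count was 3 with no filter or in the fit of 72 libraries and 2 at a minimum mean of 50. Of the 4 output factors Dbp and Tef were night-low, Nfil3 was night-high, and Hlf did not pass. The promoters of 3 repressors are shown because Cry1 and Ciart carry the E-box (CACGTG on both strands, which is its own reverse complement) while Per3 carries the D-box (TTATGTAA or TTACGTAA). The 250 bases before the transcription start are given 5′ to 3′ on the gene's strand, from RefSeq on GRCm38.p6, with motifs in capitals.
Cry1 (chr10:85185055-85185304, minus strand): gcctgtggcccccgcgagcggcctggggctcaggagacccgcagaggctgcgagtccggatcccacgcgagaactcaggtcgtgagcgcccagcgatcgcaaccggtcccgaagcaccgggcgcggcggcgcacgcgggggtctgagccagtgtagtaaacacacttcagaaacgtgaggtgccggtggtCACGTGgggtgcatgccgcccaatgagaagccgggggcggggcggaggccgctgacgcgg
Ciart (chr3:95882229-95882478, minus strand): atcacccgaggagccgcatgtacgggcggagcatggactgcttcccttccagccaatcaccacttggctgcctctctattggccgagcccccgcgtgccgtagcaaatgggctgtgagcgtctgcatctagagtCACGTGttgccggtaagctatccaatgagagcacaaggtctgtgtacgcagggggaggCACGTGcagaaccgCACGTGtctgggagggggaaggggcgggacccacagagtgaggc
Per3 (chr4:151044666-151044915, minus strand): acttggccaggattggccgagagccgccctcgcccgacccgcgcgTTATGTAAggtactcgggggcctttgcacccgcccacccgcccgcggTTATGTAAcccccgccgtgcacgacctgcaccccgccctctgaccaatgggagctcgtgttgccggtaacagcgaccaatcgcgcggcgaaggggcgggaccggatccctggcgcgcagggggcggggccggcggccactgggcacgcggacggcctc
Within 250 bases before and 50 after the start, an E-box was found in 7.15% of the 32851 RefSeq promoters and a D-box in 1.06%. Of the 9012 promoters of tested genes 930 held an E-box and 67 a D-box. Of the clock repressors 8 of 10 had a promoter in the table, and 3 of the 8 held an E-box (Cry1, Ciart and Bhlhe41). Ciart held 3 E-boxes and Per3 held 2 D-boxes. A match is a description of the letters only.

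Among the activators, Arntl was 182, 261 and 279.6 by night against 5.85, 29.04 and 128 by day (lowest, median and highest of 6 libraries, here and below). The groups did not overlap, and the lowest day values were the 3 libraries of ZT10. The difference was 2.97 ± 0.26, adjusted p = 2.01e-05. Npas2, the partner of BMAL1 that can stand in for CLOCK, was 0, 30.1 and 105 by night against 0, 0.373 and 15.6 by day, and it was listed at 0 in 1 night and 3 day libraries. It was highest in the 3 libraries of ZT22, and the difference was 2.98 ± 0.72, adjusted p = 0.0134. Clock itself moved less, by 0.72 ± 0.10, adjusted p = 0.000302, and Rora by 0.39 ± 0.07, adjusted p = 0.00345.

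Among the repressors, Cry1 was 283, 376 and 443 by night against 30.3, 56.5 and 73.5 by day. The groups stood far apart and every night library was above every day library (2.75 ± 0.18, adjusted p = 1.04e-06). Nr1d1, which encodes REV-ERB alpha, was 1.71, 7.22 and 17.2 by night against 40.1, 64.5 and 104 by day (-3.01 ± 0.40, adjusted p = 0.000319), and Nr1d2, for REV-ERB beta, was 70.9, 149 and 451 by night against 808, 1052 and 1280 by day (-2.64 ± 0.24, adjusted p = 2.43e-05). Both were high in every day library and low in every night library. Per3 was 11.4, 23.4 and 87.4 by night against 47.8, 191 and 389.7 by day (-2.39 ± 0.26, adjusted p = 6.99e-05), and its groups overlapped between ZT6 and ZT18. ZT22 against ZT10 gave -4.36 (adjusted p = 1.07e-05), and ZT18 against ZT6 gave -0.43 (adjusted p = 0.541). Ciart, a repressor of CLOCK and BMAL1, had steps of -3.87 (adjusted p = 0.000637) for ZT22 against ZT10 and 1.40 (adjusted p = 0.136) for ZT18 against ZT6. Its night minus day difference of -1.24 ± 0.38, adjusted p = 0.039 missed the threshold in 12 of 21 alternative fits. Per2 was night-high at 0.64 ± 0.14, adjusted p = 0.00892, but its 12 h steps went opposite ways, at 1.99 (adjusted p = 7.61e-05) for ZT18 against ZT6 and -0.70 (adjusted p = 0.0453) for ZT22 against ZT10. Bhlhe41, for the repressor DEC2, was 1.05, 6.53 and 8.38 by night against 10.04, 19.7 and 45.04 by day, low in all night libraries and without overlap (-1.80 ± 0.43, adjusted p = 0.0122). Per1 (0.76 ± 0.27, adjusted p = 0.0716), Cry2 (0.42 ± 0.14, adjusted p = 0.0523) and Bhlhe40 (0.25 ± 0.14, adjusted p = 0.253) did not pass.

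Dbp had the largest night-low difference of all genes tested. It was 6.17, 9.83 and 22.03 by night against 26.8, 174 and 386 by day, with the 3 ZT10 libraries highest and no overlap, and the difference was -3.53 ± 0.36, adjusted p = 4.83e-05. Tef was 263, 389 and 728 by night against 409.7, 1092 and 1565 by day (-1.05 ± 0.16, adjusted p = 0.00075), with overlap between the ZT6 and ZT18 libraries. Nfil3 was 196, 229 and 276 by night against 55.6, 101 and 197 by day (1.17 ± 0.15, adjusted p = 0.000202), with the groups touching at 1 ZT6 library. Hlf, the third activator of that family, differed by 0.42 ± 0.17, adjusted p = 0.0977. Esrrg, the nuclear receptor deleted in other mice of the series, was 14, 22.5 and 48.05 by night against 17.4, 26.8 and 48.1 by day, with the groups overlapping, and did not pass (-0.23 ± 0.26, adjusted p = 0.592).

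**Figure D2:**
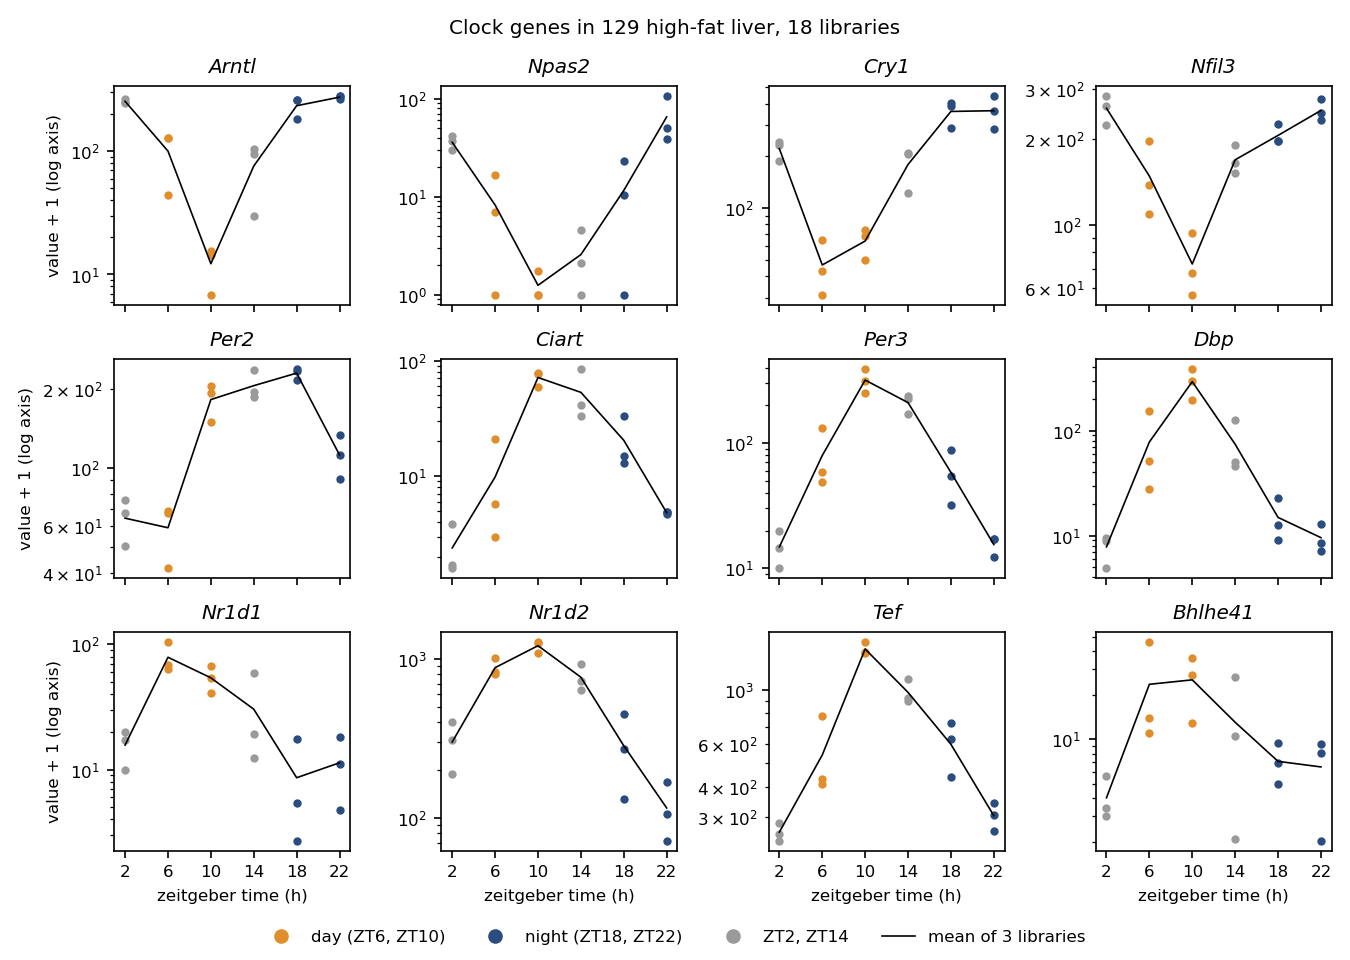
Values of 12 clock genes at the 6 zeitgeber times (h) in 129 HFD liver, as value + 1 on a log axis. Points are single libraries, 3 at each time, coloured as day, night or the 2 times outside the comparison, and lines join the means. Arntl and Npas2 are lowest at ZT10, where Ciart, Per3, Dbp and Tef are highest.

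Most of the listed chaperones of the ER rose by night. Of 26 listed genes of ER folding and the unfolded protein response 25 were tested, 15 were night-high and none night-low, against 7.69% and 8.22% of all genes, and 23 of the 25 differences lay above 0 with a median of 0.57 log2. The summed level was 46650 to 78070 by night and 35810 to 46730 by day. The promoters were searched for the ER stress element (CCAAT, 9 further bases, then CCACG, on both strands), the motif through which ATF6 acts. It was found in 8 of the 21 members with a promoter in the table (38.1%), against 39 of all 32851 promoters (0.119%). Among tested genes with a promoter 17 of 9012 held it, with 9 of 698 night-high genes (1.29%) and 0 of 747 night-low genes. Of the 8 members, Hspa5, Hsp90b1, Dnajc3, Creld2 and Syvn1 were night-high and are among the 9 night-high genes. Calr, Canx and Pdia6 hold the motif and did not pass. The stretch around it is shown for 4 of the night-high members and for Pdia6 and Canx. The outer blocks of the motif are in capitals, and CGTGG with ATTGG is the motif read on the other strand.
Hspa5 (chr2:34772013-34772055, plus strand): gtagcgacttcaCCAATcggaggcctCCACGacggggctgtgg
Creld2 (chr15:88819508-88819550, plus strand): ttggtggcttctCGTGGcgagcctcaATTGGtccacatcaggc
Syvn1 (chr19:6046520-6046562, plus strand): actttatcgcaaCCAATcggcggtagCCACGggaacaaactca
Dnajc3 (chr14:118937815-118937857, plus strand): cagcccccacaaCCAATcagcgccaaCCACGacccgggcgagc
Pdia6 (chr12:17266479-17266521, plus strand): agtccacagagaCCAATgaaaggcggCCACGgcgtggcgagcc
Canx (chr11:50325788-50325830, minus strand): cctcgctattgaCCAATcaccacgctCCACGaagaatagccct
The first base of the motif lay 65 bases before the start in Hspa5, 126 in Creld2, 44 in Syvn1, 105 in Dnajc3, 98 in Pdia6 and 145 in Canx.

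Creld2, an ER protein induced by misfolded cargo, was 126, 216 and 485 by night against 32.7, 44.97 and 77.3 by day. The groups did not overlap, and the difference was the largest of the list (2.26 ± 0.28, adjusted p = 0.000147). Hyou1, the large ER chaperone GRP170, was 914, 1833 and 2563 by night against 336, 546 and 734 by day (1.75 ± 0.23, adjusted p = 0.000292). Manf, a secreted ER stress protein, was 421, 551 and 1183 by night against 121, 186 and 400 by day (1.66 ± 0.26, adjusted p = 0.00106), and Syvn1, the ubiquitin ligase of ER-associated degradation, was 65.4, 116 and 273 by night against 26.8, 46.4 and 52.02 by day (1.53 ± 0.28, adjusted p = 0.00262). None of these 4 overlapped between the groups. Hspa5, the main ER chaperone BiP, was 5670, 7517 and 14690 by night against 2732, 3065 and 5724 by day (1.28 ± 0.21, adjusted p = 0.00122), and overlapped. Sdf2l1 (1.35 ± 0.29), Ern1, which encodes the sensor IRE1 (0.73 ± 0.14), Dnajb11 (0.72 ± 0.16), Hsp90b1, which encodes GRP94 (0.70 ± 0.17), and Pdia3 (0.69 ± 0.15) also rose. Sel1l, Dnajb9, Edem1, Pdia4 and Dnajc3 rose by 0.44 to 0.60 log2. Xbp1 (-0.18 ± 0.14, adjusted p = 0.41), the factor spliced by IRE1, and Atf6 (0.19 ± 0.07, adjusted p = 0.106) did not pass, and neither did Calr, Canx, P4hb, Pdia6, Herpud1, Selenos, Derl1 or Derl2. The count was 8 with no filter on low values and 12 to 16 when any 1 library was left out.

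Heat shock chaperones, most of them cytosolic, were the other large group. Of 23 listed genes 20 were tested, 12 were night-high and none night-low, with a median of 0.50 log2 and 19 of 20 above 0. Hsph1, a nucleotide exchange factor of HSP70, was 349.6, 546 and 836 by night against 133, 225 and 307 by day (1.32 ± 0.17, adjusted p = 0.000202). Hsp90aa1, the inducible cytosolic HSP90, was 1321, 1965 and 3050 by night against 679, 1020 and 1192 by day (1.08 ± 0.17, adjusted p = 0.00101), and Bag3, a co-chaperone of HSP70, was 57.7, 89.6 and 119 by night against 30.7, 45.4 and 54.4 by day (0.97 ± 0.18, adjusted p = 0.00256). In all 3 the groups did not overlap. Stip1, which bridges HSP70 and HSP90, rose by 0.82 ± 0.14, Chordc1 by 0.63 ± 0.16, Fkbp4 by 0.62 ± 0.14, Hspa4l by 0.58 ± 0.13, Hsp90ab1 by 0.54 ± 0.12, Dnajb1 by 0.48 ± 0.14, Dnaja1 by 0.44 ± 0.12 and Ahsa1 by 0.38 ± 0.11 log2. Hspb1 (1.86, 12.4 and 16.96 by night against 1.10, 3.51 and 6.24 by day) overlapped and passed narrowly (1.29 ± 0.41, adjusted p = 0.044) and missed the threshold in 15 of 20 alternative fits. The mitochondrial pair Hspd1 (-0.01 ± 0.08) and Hspe1 (0.04 ± 0.10) did not pass, nor did the constitutive Hspa8 (0.30 ± 0.16, adjusted p = 0.218), the inducible Hspa1b (0.53 ± 0.26, adjusted p = 0.177) or the regulator Hsf1 (0.44 ± 0.16, adjusted p = 0.076). The count was 7 without ZT10 replicate 2 or without ZT18 replicate 1, 5 in the fit of 72 libraries and 4 with no filter.

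The core of the heat shock element (GAANNTTC, its own reverse complement) was found in 7.86% of all promoters, and in 536 of the 9012 promoters of tested genes. Of the 20 tested heat shock genes 15 had a promoter in the table (75%), too few for a share over the list, so only the count is given: 8 of the 15 held the core, of which Hsph1, Bag3, Chordc1, Fkbp4, Dnaja1 and Hspb1 were night-high and Hspe1 and Hspa1b did not pass. The stretches around it are shown for 3 members that rose and for Hspe1 and Hspa1b, which did not pass, to let them be compared.
Fkbp4 (chr6:128438788-128438819, minus strand): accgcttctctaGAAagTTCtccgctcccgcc
Dnaja1 (chr4:40722332-40722363, plus strand): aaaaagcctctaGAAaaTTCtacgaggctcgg
Hspb1 (chr5:135887790-135887841, plus strand): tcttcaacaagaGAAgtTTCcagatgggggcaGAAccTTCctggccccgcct
Hspe1 (chr1:55088052-55088083, plus strand): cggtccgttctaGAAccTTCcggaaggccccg
Hspa1b (chr17:34959323-34959354, minus strand): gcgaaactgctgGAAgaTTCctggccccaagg
Over all called genes it was found in 5.01% of the night-high and 6.16% of the night-low promoters.

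**Figure D3:**
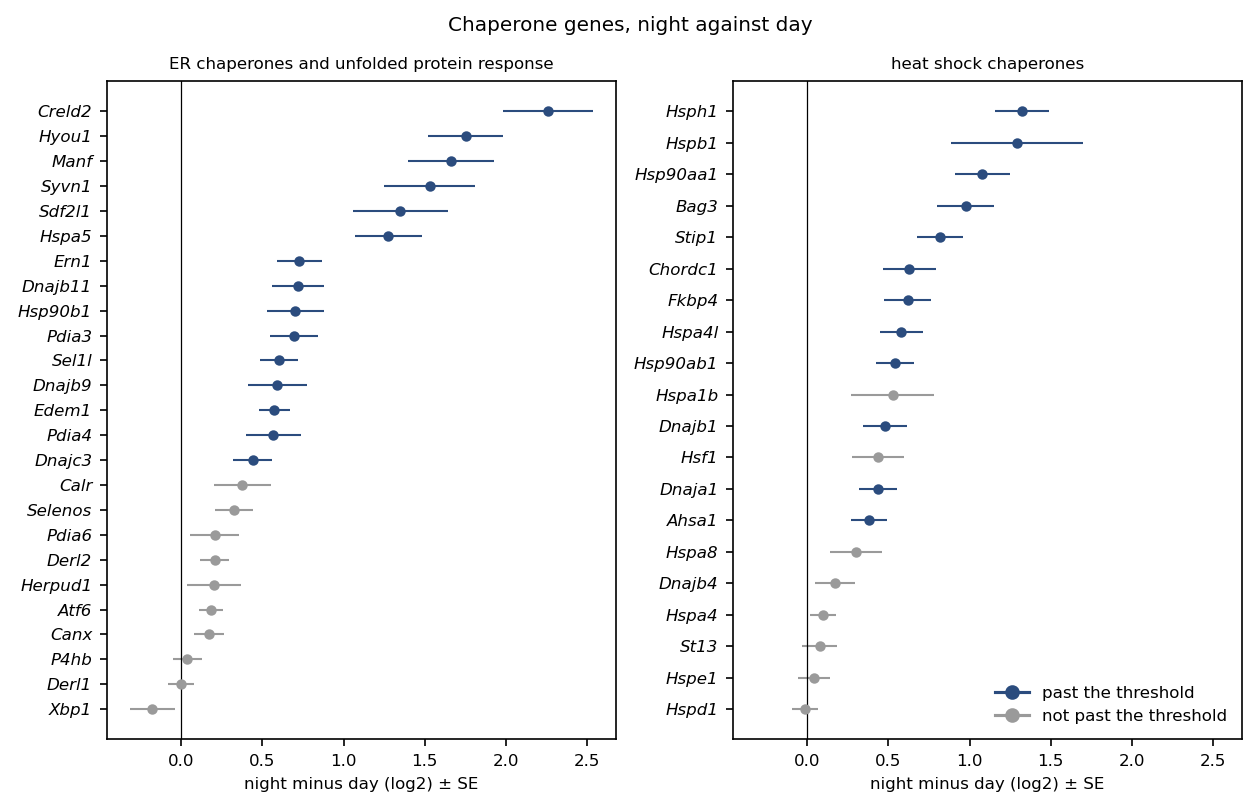
Night minus day difference (log2) with its SE for each tested member of the ER chaperone list (left, 25 genes) and the heat shock list (right, 20 genes), from 6 night and 6 day libraries. Dark points passed the test. Creld2 at 2.26 and Hsph1 at 1.32 lead the lists, and no dark point lies below 0.

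The next list held genes of ER export and glycosylation. Over all genes 7.69% were night-high and 8.22% night-low. Of 25 tested genes of ER export and glycosylation 6 were night-high and none night-low, with a median of 0.17 log2. They were the coat proteins of vesicles leaving the ER Sec24d (526, 584 and 724 by night against 329, 358 and 474 by day, 0.66 ± 0.12, adjusted p = 0.002), Sec31a (0.57 ± 0.13) and Sec23b (0.56 ± 0.12), and Spcs2 of the signal peptidase (0.57 ± 0.10), Ssr2 (0.35 ± 0.10) and Ostc of the oligosaccharyltransferase (0.44 ± 0.12). Only Sec24d and Sec31a did not overlap between the groups. Of 31 genes of ribosome biogenesis 7 were night-high, among them Rrp12 (0.91 ± 0.16), Nolc1 (0.65 ± 0.16) and Rrs1 (0.53 ± 0.14), and the count was 4 without ZT6 replicate 2, ZT10 replicate 2 or ZT22 replicate 3 and 1 in the fit of 72 libraries. Few genes of the ribosome itself passed: of 81 cytosolic ribosomal protein genes 2 were night-high (Rps26 and Rps29) and none night-low, with a median of -0.02. Rps29 missed the threshold in 14 of 22 alternative fits. Of 24 translation factors 5 were night-high and 3 night-low. The night-high count was 2 or 3 in 8 of the 12 fits that left out 1 library, namely without any 1 library of ZT6, without ZT10 replicate 2 or 3, ZT18 replicate 1 or 2, or ZT22 replicate 1. Eif4ebp3, which holds back cap-dependent translation, was 139, 268 and 386 by night against 36.8, 74.3 and 137 by day (1.70 ± 0.17, adjusted p = 3.95e-05), while its relative Eif4ebp1 was 40.7, 49.6 and 53.3 by night against 57.5, 72.1 and 79.2 by day (-0.56 ± 0.13, adjusted p = 0.0103). Neither overlapped between the groups, and they went opposite ways.

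Genes of fatty acid metabolism gave some of the largest differences. Elovl3, an elongase of very long chain fatty acids, was 1652, 5079 and 7738 by night against 135, 520.4 and 1562 by day. The groups did not overlap, the day libraries of ZT10 were lowest, and the difference was 3.23 ± 0.29, adjusted p = 2.43e-05. Of 31 tested genes of fatty acid oxidation and ketogenesis 8 were night-high and 2 night-low, with a median of 0.15. Over all genes 7.69% were night-high and 8.22% night-low. Cyp4a10 and Cyp4a14, omega-hydroxylases and classic targets of PPAR alpha, were 2456, 3385 and 4722 by night against 309.6, 892 and 2401 by day (1.91 ± 0.30, adjusted p = 0.000982) and 3728, 4480 and 6831 by night against 439, 1563 and 2982 by day (1.79 ± 0.27, adjusted p = 0.000757). Both were higher in every night library than in any day library. These 2 genes and Acot1 (1.70 ± 0.35, adjusted p = 0.00611) and Acot2 (0.91 ± 0.27) have close copies, between which reads can be split. Fgf21, the fasting hormone that PPAR alpha induces, was 22.1, 28.9 and 73.02 by night against 4.38, 17.4 and 26.7 by day (1.12 ± 0.30, adjusted p = 0.0208), with overlap, and Pdk4, the brake on pyruvate dehydrogenase, rose by 0.87 ± 0.23. Cpt2, the inner membrane carnitine palmitoyltransferase, rose by 0.50 ± 0.10. Ppara itself (-0.47 ± 0.15, adjusted p = 0.046) and Bdh1, which makes the ketone body hydroxybutyrate (-0.54 ± 0.09, adjusted p = 0.00202), fell. Cpt1a (-0.24 ± 0.10, adjusted p = 0.111), Acadm (0.10), Acadl (0.24) and Hadha (0.02) did not pass. The count of night-high members was 5 without ZT6 replicate 2 or ZT18 replicate 1, 4 in the fit of 72 libraries and 3 with no filter.

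Acnat2, an acyltransferase of the peroxisome with a close copy in the genome, was 894, 1418 and 1637 by night against 270.2, 363 and 494 by day and did not overlap (1.85 ± 0.14, adjusted p = 7.61e-06). Nudt7, which hydrolyses peroxisomal coenzyme A, went the other way at 858, 1454 and 2131 by night against 2377, 3448 and 3692 by day (-1.25 ± 0.15, adjusted p = 0.000136). Of 14 genes of the lipid droplet 3 were night-high and none night-low, against 7.69% and 8.22% of all genes. Plin5, the droplet coat that binds mitochondria, was 289, 317 and 320.2 by night against 64.4, 88.95 and 162 by day (1.65 ± 0.17, adjusted p = 5.63e-05), and the 6 night values lay close together. Mgll, monoacylglycerol lipase, rose by 0.82 ± 0.12 and Hilpda, an inhibitor of lipolysis, by 0.83 ± 0.19. Of 16 tested genes of fatty acid synthesis and its control 2 were night-high (Insig2 and Acacb), against 7.69% of all genes. Insig2, which retains SREBP in the ER, was 2701, 4973 and 6099 by night against 541, 1581 and 4304 by day, overlapping only between ZT6 and ZT18 (1.61 ± 0.17, adjusted p = 5.63e-05). Acacb (1.01 ± 0.33, adjusted p = 0.0492) missed the threshold in 15 of 22 alternative fits. Fasn differed by 1.18 ± 0.39, adjusted p = 0.0543, Scd1 by -0.65 ± 0.55, adjusted p = 0.449 and Srebf1 by 0.15 ± 0.28, adjusted p = 0.747, and none passed. Of 9 genes of triglyceride synthesis Agpat2 (0.64 ± 0.13) and Agpat3 (0.46 ± 0.12) were night-high.

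In cholesterol synthesis Sqle, squalene epoxidase, did not pass (0.99 ± 0.43, adjusted p = 0.135). Srebf2, the regulator of that pathway, was 60.4, 103 and 229 by night against 36.7, 44.8 and 67.8 by day, with overlap (1.14 ± 0.25, adjusted p = 0.00778). Abcg5 and Abcg8, the pair that exports sterols into bile, were night-low at -0.65 ± 0.11, adjusted p = 0.00202 and -0.60 ± 0.13, adjusted p = 0.00672. Of 21 bile acid genes Cyp8b1, the 12-alpha-hydroxylase, was 1789, 2377 and 2961 by night against 771, 1179 and 1794 by day, touching at 1 library of each group (0.96 ± 0.14, adjusted p = 0.000567), and Cyp39a1 rose by 1.26 ± 0.18, while the uptake carrier Slco1b2 fell (-0.63 ± 0.13, adjusted p = 0.00512). The bile acid list thus gave 2 night-high and 1 night-low of 21, against 7.69% and 8.22% of all genes. In lipoprotein assembly 4 of 20 genes were night-high and 1 night-low. Mttp, which loads lipid onto apolipoprotein B, was 2910, 3341 and 3958 by night against 2406, 2579 and 2757 by day (0.37 ± 0.08, adjusted p = 0.00914) and did not overlap, and Sort1, a sorting receptor, was 47.7, 66.1 and 83.2 by night against 88.2, 118 and 215 by day (-0.96 ± 0.13, adjusted p = 0.000381), highest at ZT6 and without overlap. Angptl8, which takes part in the inhibition of lipoprotein lipase, was night-high (1.56 ± 0.46) and missed the threshold in 10 of 22 alternative fits.

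Of 13 glycogen genes 2 were night-high and 2 night-low. Over all genes the shares were 7.69% and 8.22%, which a list this short can exceed by a single gene. Ppp1r3b and Ppp1r3c, which target a phosphatase to glycogen and favour its synthesis, were 3073, 3508 and 4401 by night against 866, 1669 and 2797 by day (1.13 ± 0.12, adjusted p = 6.99e-05) and 1111, 2223 and 2689 by night against 309, 533 and 1215 by day (1.85 ± 0.19, adjusted p = 4.83e-05). Ugp2, which makes the UDP-glucose that is built in, was 2220, 2574 and 3050 by night against 4287, 5002 and 5670 by day (-0.95 ± 0.10, adjusted p = 6.99e-05). Ppp1r3b and Ugp2 did not overlap between the groups and moved in opposite directions, while Ppp1r3c overlapped through ZT18 replicate 3. Phka2, a subunit of phosphorylase kinase, fell (-0.55 ± 0.11). Of 20 genes of gluconeogenesis and fasting 3 were night-high: G6pc, glucose-6-phosphatase, at 2784, 3798 and 5384 by night against 1090, 1411 and 3149 by day (1.23 ± 0.24, adjusted p = 0.00386), where 5 of the 6 day values lay below all night values, Slc37a4, its transporter (0.35 ± 0.10), and Hnf4a (0.39 ± 0.09). Pck1 did not pass (0.17 ± 0.31, adjusted p = 0.733). The count was 0 with no filter, 1 in the fit of 72 libraries or with the GC trend removed, and 5 without ZT6 replicate 1 or ZT22 replicate 2. In glycolysis Pfkfb1 rose (0.79 ± 0.10) and Gckr, the inhibitor of glucokinase, fell (-0.37 ± 0.10).

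Of 20 genes of the methionine cycle and phosphatidylcholine 6 were night-high and 1 night-low, against 7.69% and 8.22% of all genes. Bhmt, which remethylates homocysteine from betaine, was 23600, 37100 and 47070 by night against 11160, 12780 and 22060 by day (1.30 ± 0.19, adjusted p = 0.000597). Ahcy, which frees homocysteine, was 2367, 2987 and 3164 by night against 1324, 1822 and 2323 by day (0.72 ± 0.09, adjusted p = 0.000136). Neither gene overlapped between the groups. Chka, the first step of the choline route, was 246, 531 and 684 by night against 52.3, 111 and 407 by day (1.98 ± 0.21, adjusted p = 5.63e-05), lowest in the 3 ZT10 libraries. Its steps were 3.44 (adjusted p = 1.11e-05) for ZT22 against ZT10 and 0.51 (adjusted p = 0.332) for ZT18 against ZT6. Bhmt2 (0.37 ± 0.08) and Dmgdh (0.38 ± 0.09) rose and Etnk2 (-0.50 ± 0.15) fell. Of 22 genes of amino acid breakdown and the urea cycle 4 were night-high, Ddc (1.09 ± 0.11, adjusted p = 5.21e-05), Gldc (1.05 ± 0.12), Asl (0.95 ± 0.16) and Hal (0.50 ± 0.12), and 2 were night-low, Oat (-0.68 ± 0.18) and Otc (-0.29 ± 0.07).

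Cdkn1a, which encodes the cell cycle inhibitor p21, had the largest difference of all genes tested. It was 117, 138 and 200.1 by night against 2.40, 7.44 and 15.8 by day, every night library stood far above every day library, and the difference was 4.23 ± 0.21, adjusted p = 4.28e-08. Its 12 h steps were 3.57 for ZT18 against ZT6 and 4.89 for ZT22 against ZT10. Among 17 cell cycle and repair genes Btg1 (0.84 ± 0.11) and Ccng2 (0.75 ± 0.18) were night-high too, and Wee1, Ccng1 and Xpa were night-low. The shares over all genes were 7.69% night-high and 8.22% night-low. Wee1 missed the threshold in 11 of 22 alternative fits. The night-low count of 3 was 1 without ZT10 replicate 2, ZT18 replicate 1 or 2, or ZT22 replicate 1, and also 1 with no filter or with the times of each phase pooled, and it was 0 in the fit of 72 libraries. Mcm10, a replication factor, was 122, 199 and 367 by night against 309, 489 and 556 by day (-1.15 ± 0.17, adjusted p = 0.00082), overlapping at 1 library of each group, and Rrm2, a subunit of ribonucleotide reductase, rose by 1.05 ± 0.29. Zbtb16, a zinc finger factor, was 199.8, 303 and 395 by night against 41.9, 63.7 and 132 by day (2.03 ± 0.21, adjusted p = 4.83e-05) without overlap, and Fkbp5, an HSP90 partner induced by glucocorticoids, was 377, 648 and 1344 by night against 94.1, 202 and 793 by day (1.56 ± 0.24, adjusted p = 0.000897), lowest in the ZT6 libraries and overlapping through ZT10. With Tsc22d3 (0.96 ± 0.25), Dusp1 (0.99 ± 0.26) and Cdkn1a they made 5 night-high of 14 genes that respond to glucocorticoids, with none night-low. Per1 (0.76), Tat (0.65), Klf9 (-0.19) and Mt1 (-0.58) of that list did not pass. The count was 3 without ZT10 replicate 2 or without ZT18 replicate 1.

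Cyp2b10, the cytochrome P450 that the receptor CAR induces, was 78.3, 96.4 and 189.6 by night against 1.08, 4.02 and 66.8 by day (4.15 ± 0.61, adjusted p = 0.000627). A single day library, ZT10 replicate 1, reached its day maximum, and the other 5 lay at 4.92 or below. Of 33 tested genes of xenobiotic metabolism and heme supply 7 were night-high and none night-low: Cyp2b10, Sult1e1 (1.20 ± 0.36), Cyp3a11 (0.38 ± 0.12), Cyp3a13 (0.35 ± 0.11), Nr1i2, which encodes the receptor PXR (0.39 ± 0.12), Sult1a1 (0.46 ± 0.13) and Gsta3 (0.42 ± 0.13). The share over all genes was 7.69% night-high. The xenobiotic count depended on single libraries: it was 1 to 4 in 10 of the 12 fits that left out 1 library (all but those without ZT6 replicate 3 or ZT22 replicate 1). In the fit of 72 libraries it was 1. Further genes among the 30 of the heat map, which leaves out genes whose groups overlap, were Pitx3 (2.66 ± 0.30), Celsr1 (2.38 ± 0.26), Pnkd (1.85 ± 0.26), Lrfn3 (1.81 ± 0.36) and Myom3 (1.78 ± 0.22) by night. By day they were Gnat1 (-1.84 ± 0.22), Tnfrsf19 (-1.66 ± 0.23), Klhdc7a (-1.59 ± 0.19), Fbxo21 (-1.53 ± 0.21), Bmf (-1.46 ± 0.27), Sult1c2 (-1.39 ± 0.23) and Slc5a6 (-1.20 ± 0.19). Several of these are low in liver: Pitx3 was 8.47 to 33.1 by night against 1.15 to 7.12 by day and Gnat1 was 6.17 to 9.20 by night against 21.6 to 48.8 by day. Of the 30 genes 22 passed in every alternative fit.

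Several genes of inflammation and interferon were higher by day. Of 19 tested interferon genes 6 were night-low and none night-high, against 8.22% and 7.69% of all genes. Their median was -0.49 log2, and 16 of 19 lay below 0, against 5785 of all 11287 genes. Psmb9, a subunit of the immunoproteasome, was 10.3, 13.7 and 20.5 by night against 25.7, 34.95 and 44.8 by day (-1.24 ± 0.20, adjusted p = 0.00115). Ifit1, which binds viral RNA, was 19.4, 29.9 and 40.9 by night against 49.2, 59.9 and 67.97 by day (-0.99 ± 0.17, adjusted p = 0.00171), and neither gene overlapped between the groups. Irf1 (-0.58 ± 0.13), Rsad2 (-0.86 ± 0.20), Ifit3 (-0.83 ± 0.23) and Gbp3 (-1.04 ± 0.30) fell too. Gbp3 has close copies and missed the threshold in 9 of 21 alternative fits. Isg15 (-0.17 ± 0.22, adjusted p = 0.627), Irf7 (-0.50 ± 0.26, adjusted p = 0.207) and B2m (-0.13 ± 0.09, adjusted p = 0.347) did not pass. The count was 10 without ZT22 replicate 2, 2 with no filter and 0 in the fit of 72 libraries. Cxcl1, a chemokine for neutrophils, was 10.8, 22.3 and 28.6 by night against 40, 63.6 and 405 by day (-1.94 ± 0.43, adjusted p = 0.00805), where ZT6 replicate 2 alone gave the highest day value. Il1rn, the antagonist of interleukin 1, was 5.31, 8.04 and 11.2 by night against 13.1, 21.98 and 40.1 by day (-1.34 ± 0.29, adjusted p = 0.00806). Neither overlapped between the groups.

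Markers of immune cells lay mostly below 0 as well, but few of them passed. Over all genes 8.22% were night-low and 5785 of 11287 lay below 0, and lists this short can exceed that share by a single gene. Of 12 Kupffer cell markers 2 were night-low (Cd5l, -0.74 ± 0.19, adjusted p = 0.0169, and Adgre1, -0.50 ± 0.12, adjusted p = 0.0123) and none night-high, 9 of 12 lay below 0, and their summed level was 1059 to 1694 by night and 1209 to 2281 by day. Of 5 tested markers of recruited macrophages and monocytes Lyz2 was night-low (-0.63 ± 0.17, adjusted p = 0.0186) and all 5 lay below 0, with a summed level of 139.2 to 307.8 by night and 226.3 to 440.5 by day. Ptprc, the pan-leukocyte antigen CD45 and the 1 tested lymphocyte marker, was night-low (-0.59 ± 0.14, adjusted p = 0.0104), while the 11 other listed markers were below the filter and Cd79a had a median of 0. All 3 tested neutrophil markers lay below 0 and none passed (limma, 0 at an unadjusted p below 0.05), and Ly6g, Mmp8 and Ngp were at a median of 0. In whole liver, fewer cells of a type and less RNA per cell cannot be told apart, and the part of these markers in the interferon result was not tested. None of 9 stellate cell markers passed (limma, 1 at an unadjusted p below 0.05). Of 12 sinusoidal endothelial markers Lyve1 rose (0.96 ± 0.25) and Kdr fell (-0.28 ± 0.07). Sox9, a bile duct marker, was 16.3, 27.2 and 51.5 by night against 6.87, 8.71 and 10.5 by day (1.58 ± 0.20, adjusted p = 0.000202), higher in every night library, while Spp1 fell (-0.51 ± 0.14). Cela1 fell (-0.56 ± 0.12), and of the 11 other pancreatic acinar genes, all below the filter, 10 had a median of 0. Hba-a1 (0.63 ± 0.19) and Hba-a2 (0.65 ± 0.19), near-identical copies of alpha globin, were night-high, and each missed the threshold in 11 of 21 alternative fits. No skeletal muscle gene and 3 of 8 adipocyte markers were above the filter.

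**Figure D4:**
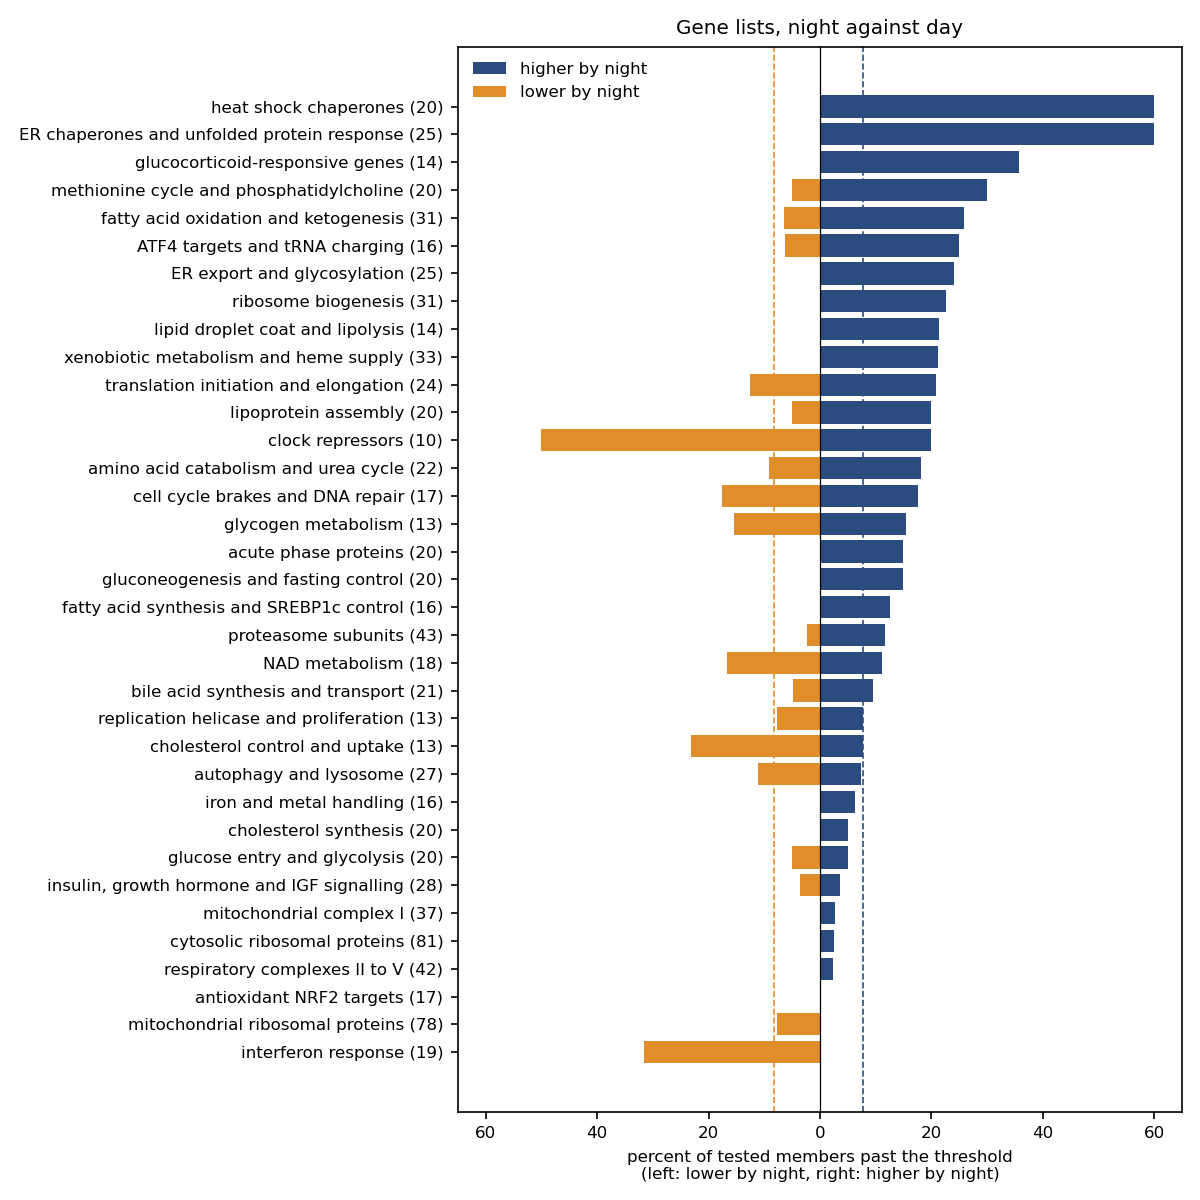
Percent of the tested members of each gene list (number tested in brackets, lists of at least 10) that were higher (right) or lower (left) by night at an adjusted p below 0.05, from 6 night and 6 day libraries. Dashed lines mark all tested genes, 7.69% higher and 8.22% lower. The 2 chaperone lists reach furthest right, and the clock repressors and the interferon list furthest left.

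Several large lists stayed near or below the share of all genes. Of 37 complex I genes 1 was night-high, of 42 genes of complexes II to V 1 was night-high, and of 78 mitochondrial ribosomal protein genes 6 were night-low and none night-high. The last count was 2 or 3 when ZT6 replicate 3, ZT10 replicate 2, ZT10 replicate 3, ZT18 replicate 1 or ZT22 replicate 3 was left out, and 0 in the fit of 72 libraries. None of 17 NRF2 targets passed (limma, 5 at an unadjusted p below 0.05). Of 28 genes of insulin, growth hormone and IGF signalling Irs1 rose (0.59 ± 0.14) and Ghr fell (-0.39 ± 0.09). Of 43 proteasome genes 5 were night-high (8 with the GC trend removed, 3 with no filter and 2 in the fit of 72 libraries), and the 1 night-low gene was Psmb9. The cold-inducible Cirbp (-0.62 ± 0.20, adjusted p = 0.0509) and Rbm3 (-0.28 ± 0.15, adjusted p = 0.217) did not pass.

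The comparison holds 2 steps of 12 h. ZT18 against ZT6 gave 680 genes (6.02%), 340 (3.01%) in each direction, and ZT22 against ZT10 gave 946 (8.38%), 483 higher (4.28%) and 463 lower (4.1%). These steps share no library. The first count was 266 without ZT6 replicate 2, 301 without ZT18 replicate 1 and 400 without ZT18 replicate 2, and the second 375 without ZT10 replicate 2, 520 without ZT10 replicate 3 and 544 without ZT22 replicate 1. Of the genes, 156 passed in both with the same sign and 29 with opposite signs, which makes 27.2% of the first set and 19.6% of the second. Within the night no gene passed (0 genes for ZT22 against ZT18 with limma, 1000 genes or 8.86% at an unadjusted p below 0.05), while ZT10 against ZT6 gave 256 genes (2.27%), 138 higher (1.22%) and 118 lower (1.05%). By their means over all 6 times, night-high genes were highest at ZT22 in 446 cases, at ZT18 in 275, at ZT14 in 90 and at ZT2 in 56. Night-low genes were highest at ZT6 in 503 cases, at ZT10 in 346, at ZT14 in 52 and at ZT2 in 27.

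The 29 genes with opposite steps are those whose course a night minus day mean can hide. Of them 22 were higher at ZT18 than at ZT6 and lower at ZT22 than at ZT10, and 7 were the reverse. Por, the electron donor of the cytochromes P450, was 242, 156 and 165 at ZT6, 1271, 919 and 1017 at ZT10, 637, 866 and 1101 at ZT18 and 383, 445 and 373 at ZT22. It was low in all ZT6 libraries and high in all ZT10 and ZT18 libraries, with steps of 2.20 (adjusted p = 4.16e-05) and -1.41 (adjusted p = 0.000766) and a night minus day difference of 0.40 ± 0.14, adjusted p = 0.0706. Alas1, the first enzyme of heme synthesis, was 500, 536 and 294 at ZT6, 3043, 1184 and 3134 at ZT10, 722, 1867 and 4077 at ZT18 and 786, 268 and 509.7 at ZT22. It followed the same course, with 12 h steps of 2.04 (adjusted p = 0.0364) and -2.24 (adjusted p = 0.0196) and a night minus day difference of -0.10 ± 0.38, adjusted p = 0.887. Thrsp, a lipogenic regulator, had means of 204, 2315, 1010 and 314 at ZT6, ZT10, ZT18 and ZT22, with steps of 2.51 (adjusted p = 0.00885) and -2.95 (adjusted p = 0.003). Usp2, a deubiquitinase, had means of 11.8, 161, 101 and 29.1 at these times, with steps of 3.25 (adjusted p = 0.00105) and -2.43 (adjusted p = 0.00589). For Noct, which encodes a NADP(H) phosphatase, the means were 36.4, 146, 141 and 48.1 and the steps 2.04 (adjusted p = 0.0131) and -1.64 (adjusted p = 0.0323). Cyp2a5 and Aacs had the same course. The reverse course, low at ZT10 and higher at ZT6 and ZT22, was seen in Gclc, the rate-limiting enzyme of glutathione synthesis, with means of 2967, 1311, 1908 and 2720 and steps of -0.65 (adjusted p = 0.027) and 1.05 (adjusted p = 0.00115). It was also seen in Crot, a peroxisomal carnitine acyltransferase, with means of 8135, 3014, 3496 and 4342 and steps of -1.21 (adjusted p = 0.000359) and 0.51 (adjusted p = 0.0491). The water channel gene Aqp8 was among them as well.

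The same contrast in B6 mice on HFD, which shares no library with it, gave 466 genes (4.13%), 267 higher (2.37%) and 199 lower (1.76%). The B6 libraries were less alike. Their share of tested genes under 1 was 0.239% to 0.567% by night and 0.257% to 3.25% by day. The microRNA gene Mir6236 was 2846 to 16670 by night and 2323 to 91010 by day, against 294 to 1698 and 702.8 to 3812 in 129 on HFD. The part of these library differences in the lower count in B6 was not tested. Of the 1796 genes called in 129 on HFD 82.3% had the same sign in B6, and 252 (14%) passed there, 251 of them with the same sign. Of the 466 genes called in B6 252 (54.1%) passed in 129. Across the 1796 genes Pearson's r between the strains was 0.70, a description over genes that were chosen in 1 of them and are not independent. Cdkn1a (3.57 ± 0.52), Dbp (-3.84 ± 0.41), Nr1d1 (-3.30 ± 0.37), Arntl (3.09 ± 0.51) and Cry1 (2.08 ± 0.30) passed in B6 with the same sign. Cyp4a10 was -0.17 ± 0.58, Cyp4a14 -0.68 ± 0.58, Celsr1 0.36 ± 0.35 and Creld2 0.85 ± 0.28 there, and none of these 4 passed in B6. The test of the difference between strains did not call them: it called 2 genes (0.0177%, limma, with 1014 genes or 8.98% at an unadjusted p below 0.05). For Cyp4a10 the difference between strains was 2.08 ± 0.83, adjusted p = 0.489, and for Cyp4a14 2.47 ± 0.83, adjusted p = 0.441. In the simulated data this test recovered 52.2% of genes that differed by 1 log2 and 84.8% of those that differed by 2 log2. These rates are averages over genes drawn at random, each with its own spread. The rate for genes with an SE as large as 0.83 was not tested.

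Of the 2 genes called, Vkorc1 is described here. Vkorc1, the vitamin K epoxide reductase, was 412, 454 and 478 by night against 445, 481 and 523 by day in 129, where the groups overlapped (-0.10 ± 0.07, adjusted p = 0.348), against 0.76 ± 0.10, adjusted p = 0.000227 in B6, a difference of -0.86 ± 0.14, adjusted p = 0.0165. No gene was called with the trend on GC content and length removed, an alternative chosen after the data were seen, or with the level of the microRNA gene Mir6236 in the model. Without B6 ZT10 replicate 3, B6 ZT18 replicate 2 or 3, 129 ZT6 replicate 1, 129 ZT10 replicate 3 or 129 ZT18 replicate 2 the count was 0 as well. It was 5 without B6 ZT6 replicate 2 and 4 without 129 ZT18 replicate 3.

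**Figure D5:**
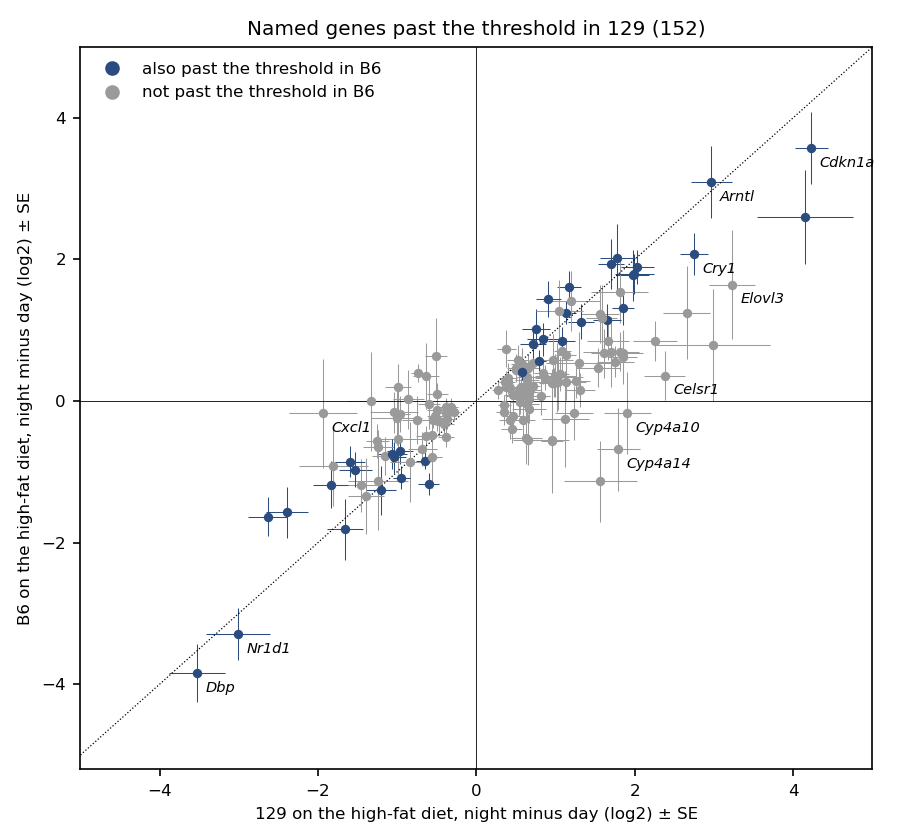
Night minus day difference (log2, bars are SE) in 129 (x axis) and in B6 (y axis) on HFD, 12 libraries each, for the 152 named genes that passed in 129. Dark points (36) also passed in B6, and the dotted line marks equal differences. Dbp, Nr1d1 and Arntl lie near the line, and Cyp4a10 and Cyp4a14 at 1.91 and 1.79 in 129 lie below 0 in B6.

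In 129 mice on chow the same contrast gave 4837 genes (42.9%). In that set Mir6236 was 39050 to 61430 by night and 37.2 to 3213 by day, against 294 to 1698 and 702.8 to 3812 on HFD, so that on chow the phase and this difference between libraries cannot be told apart. The diets differed in the night minus day difference for 332 genes (2.94%), and for 4 with the Mir6236 level in the model. The count was 2369 without chow ZT6 replicate 3, 514 without chow ZT22 replicate 3 and 129 to 211 without chow ZT6 replicate 1 or 2, ZT10 replicate 3 or ZT18 replicate 3, or without any 1 HFD library other than ZT10 replicate 3, ZT18 replicate 2 and ZT22 replicate 1. Rgs16, a brake on G protein signalling, was 36.6, 84.5 and 177 by night against 24.6, 210 and 906 by day on HFD, with wide overlap, and did not pass (-0.95 ± 0.53, adjusted p = 0.239), against -6.19 ± 0.74 on chow, a difference of 5.24 ± 1.05, adjusted p = 0.0114. Igfbp1, which fasting induces, was -0.11 ± 0.39 on HFD and -2.75 ± 0.49 on chow (2.64 ± 0.69, adjusted p = 0.0435), and this difference missed the threshold in 16 of 32 alternative fits. Angptl8, which feeding induces, was 1.56 ± 0.46 on HFD and 5.87 ± 0.63 on chow (-4.30 ± 0.89, adjusted p = 0.0129), and G0s2, an inhibitor of triglyceride lipase, 0.36 ± 0.29 and 4.36 ± 0.33 (-4.01 ± 0.47, adjusted p = 0.000118). With the Mir6236 level in the model the differences between diets of Rgs16, Angptl8 and G0s2 did not pass. Cyp2b10 was 4.15 ± 0.61 and 1.16 ± 0.56 (2.999 ± 0.79, adjusted p = 0.0443), a difference that missed the threshold in 22 of 32. Of the clock genes, Arntl, Dbp and Nr1d1 did not pass this test: the difference between diets was 0.76 ± 0.44, adjusted p = 0.296 for Arntl, -0.24 ± 0.73, adjusted p = 0.867 for Dbp and 0.27 ± 0.71, adjusted p = 0.847 for Nr1d1.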

How the data were processed

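RNA of whole liver was sequenced from TruSeq libraries, per the labels' protocols, and STAR, HOMER and the mouse build mm10 are named in the submitters' processing notes, with no versions given. The authors deposited 1 signal value per RefSeq transcript and library, quantile-normalised per the file name, so that the 72 wild-type libraries hold the same sorted values and no counts or depth remain. For each of 25125 symbols the transcript with the highest mean was kept. Genes with a mean of at least 10 over the 72 libraries (11287) were analysed as log2(value + 1). The fit was limma 3.58.1 in R 4.3.3 with a mean-variance trend, on 12 libraries with 4 time means (8 residual degrees of freedom) and Benjamini-Hochberg adjustment over all genes. Differences between sets came from interaction fits of 24 libraries. The ± values are SEs of the fit. In simulated data of 11287 genes the night minus day fit recovered 40.3%, 86.6% and 100% of genes changed by 0.5, 1 and 2 log2. Only 66 or 67 genes of each size were changed, drawn at random and simulated as independent, so the share changed was smaller than the share called in the data.

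The members and the 54 lists were chosen with earlier results of these data known. Genes named by rule were the 15 largest in each direction without overlap, up to 4 called members of each list, the clock genes and Esrrg, and the 6 largest differences in each direction between sets. For the 15 and the 6 largest, symbols that start with Mir, Snor or Gm followed by digits, or end in Rik, were left out. Other genes named, among them those with opposite 12 h steps, were chosen after their values were seen. Promoters matched 9012 of 11287 genes (79.8%), so no share over all tested genes is given. Alternatives were another pseudocount and filters, scalings, sets of libraries and covariates, and leaving out each library. Some genes are not reported here.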

Additional observations from a re-analysis of the deposited data

Results flagged for a closer look

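In 162 named genes, 324 groups of 6 libraries were looked at for a library far from the others, and 11 groups (3.4%) held one. A rate of about 1 in 20 would hold for 6 values of a single group. Each group here joins 2 times and the genes were picked by their values, so 3.4% cannot be set against that rate. By night Ahcy was 2367 in ZT22 replicate 2 against 2840 to 3164 in the others. ZT18 replicate 3 was low for Arntl (182.4 against 256.7 to 279.6) and Ppp1r3c (1111 against 1979 to 2689). Sec31a was 1281 in ZT22 replicate 1 against 639.6 to 763.6. By day Cxcl1 was 405.3 in ZT6 replicate 2 against 40 to 71.07, and Psmd7 was 145.1 in the same library against 229.7 to 291.5. Cyp2b10 was 66.77 in ZT10 replicate 1 against 1.08 to 4.924, and Tnfrsf19 was 31.07 there against 47.81 to 58.38. Mcm10 was 309.4 in ZT6 replicate 3 against 454.4 to 556.4, Sec23b was 419.2 in that library against 247.6 to 293.8, and Nmnat3 was 30.07 in ZT6 replicate 1 against 38.69 to 44.79.

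The night minus day difference departed from that of another set, by the limma test of the difference, for 13 named genes. Against B6 on HFD the departure was -0.857 log2 for Vkorc1. Against 129 on chow they were 5.237 for Rgs16, 3.265 for Fzd6, 2.999 for Cyp2b10, 2.757 for Rnaset2a, 2.689 for Zik1 and 2.64 for Igfbp1. In the other direction they were -4.303 for Angptl8, -4.006 for G0s2, -2.997 for Rpph1, -2.904 for Hist1h1d, -2.593 for Hist1h1c and -2.536 for Trex1. Several of these departures missed the threshold in many alternative fits: Rnaset2a in 23 of 31, Cyp2b10 in 22 of 32, Igfbp1 in 16 of 32, Fzd6 in 15 of 31, Zik1 in 12 of 31, Rpph1 in 10 of 32 and Vkorc1 in 8 of 32. The other 6 missed it in 1 or 2, and all 6 missed it with the Mir6236 level in the model. On chow the phase and the Mir6236 level cannot be told apart.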

How the results depend on the processing

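Depth is unknown, so how far counting error limits low genes was not tested. With no filter on low values 898 genes differed between night and day, 284 between ZT18 and ZT6 and 284 between ZT22 and ZT10, and 4 against B6 on HFD and 173 against 129 on chow. In the fit of 72 libraries the first 3 counts were 538, 193 and 302, and 123 genes differed by at least 2-fold. That count was 115 with a pseudocount of 10 and 108 at a minimum mean of 50. Against B6 on HFD 4 genes were called with a pseudocount of 10, and 0 with the trend on GC content and length removed (an alternative chosen after seeing the data) or with the Mir6236 level as a covariate. Against 129 on chow that covariate left 4 genes, and Rpph1 went from -2.997 to 1.374 log2. Leaving out 1 library gave 1091 to 1877 genes for night and day, 266 to 979 for ZT18 and ZT6, 375 to 938 for ZT22 and ZT10, 0 to 5 against B6 on HFD and 129 to 2369 against 129 on chow. The cause of these shifts was not tested. Libraries of one replicate number showed no clear pairing (mean correlation of deviations 0.043 over 18 pairs of one number, from -0.209 to 0.285, and -0.021 over 36 pairs of different numbers). The 2 means are tied, because deviations from a time mean sum to 0, so they cannot settle whether the numbers pair the libraries. With the replicate block 1915 genes differed between night and day, 2 against B6 on HFD and 206 against 129 on chow. Of the genes named by night and day, Sult1e1, Lbp and Gsta3 missed the threshold in 14 of 21, 14 of 22 and 11 of 22 alternatives. Slc37a4 and Sult1a1 missed it in 10 of 22 each, Rrs1 in 7 of 22 and Rrm2 in 7 of 21. Of the 152 named genes past the threshold 66 were past it in every alternative. None of the 1796 genes had the other sign in an alternative that held it, which was largely set in advance because the fits share their libraries.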

Other observations

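Of 20 acute phase genes Saa4 (0.72 ± 0.16), Lbp (0.38 ± 0.12) and Crp (0.27 ± 0.08) were night-high and none night-low, although 16 of 20 lay below 0, among them Saa2 (-1.48 ± 0.59, adjusted p = 0.102), Saa1 (-0.90 ± 0.51, adjusted p = 0.242) and Orm2 (-0.99 ± 0.33, adjusted p = 0.0524), which did not pass. Over all genes 7.69% were night-high and 8.22% night-low. The night-high count of acute phase genes was 1 without ZT6 replicate 3, ZT10 replicate 2 or 3, ZT18 replicate 1 or ZT22 replicate 2. Of 16 ATF4 targets and tRNA synthetases Tars (0.87 ± 0.13), Wars (0.67 ± 0.18), Iars (0.62 ± 0.12) and Aars (0.39 ± 0.11) were night-high, and the count was 2 without ZT6 replicate 2, ZT10 replicate 2 or ZT18 replicate 1. Trib3, a pseudokinase induced by stress, was 7.23, 7.77 and 14.3 by night against 11.2, 16.6 and 28.2 by day, and overlapped (-0.84 ± 0.25, adjusted p = 0.0338), and it missed the threshold in 11 of 21 alternative fits. Asns (-0.04 ± 0.22, adjusted p = 0.919) and Ddit3 (0.40 ± 0.19, adjusted p = 0.176) did not pass.

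Of 27 genes of autophagy and the lysosome 3 were night-low and 2 night-high, near the 8.22% and 7.69% of all genes. Gabarapl1, an autophagosome protein, was 928, 1323 and 1556 by night against 1552, 2570 and 3603 by day, with overlap (-0.96 ± 0.17, adjusted p = 0.00188), and Tfe3, a regulator of lysosomal genes, rose by 0.68 ± 0.14. Of 18 NAD genes Nmnat3, an NAD synthase, was 10.6, 18.8 and 26.8 by night against 30.1, 42.4 and 44.8 by day without overlap (-1.07 ± 0.19, adjusted p = 0.00216), while Acmsd, which turns tryptophan breakdown away from NAD, rose (1.03 ± 0.33, adjusted p = 0.0494) but missed the threshold in 14 of 22 alternative fits. Slc30a10, a manganese exporter, was 282, 683 and 826 by night against 60.4, 208 and 389 by day, with overlap, and was the 1 night-high gene of 16 of metal handling (1.81 ± 0.19, adjusted p = 5.21e-05). Among 6 immediate early genes Jun rose (0.96 ± 0.21, adjusted p = 0.00798).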
